A study of Mus musculus with 11 samples.

Results

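Hepatic fatty acid synthesis and its regulators were followed through 10 genes in RNA-seq of whole mouse liver. They were the transcription factors Srebf1 and Mlxipl, the regulator Thrsp, the enzymes Acly, Me1, Acaca, Acacb, Fasn and Elovl6, and the lipase gene Pnpla3. Each was taken by its symbol from the deposited count table of 55414 gene rows, each matched 1 row, and all 10 passed the filter on low counts that left 17038 genes for testing. The 11 samples, called livers here, came from male mice. All carried Clec4f-DTR, a diphtheria toxin (DT) receptor driven by the promoter of Clec4f, a gene of Kupffer cells, the resident macrophages of the liver, so that toxin can remove those cells. Mice were 8 weeks old when the diets began and were fed for 16 weeks. The groups were 4 livers of mice fed western diet with alcohol and injected serially with DT (DT livers), 4 livers after the same feeding with serial saline in place of toxin (saline livers), and 3 livers of chow-fed mice whose labels name no injection (chow livers). DT against saline livers asks what the toxin changed on this diet. Saline against chow livers asks what western diet with alcohol changed, and any effect of the saline injections cannot be told apart from it. DT against chow livers holds both contrasts.

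In the liver, surplus carbohydrate is turned into fat in the cytosol of hepatocytes. ATP citrate lyase (Acly) makes acetyl-CoA from citrate, acetyl-CoA carboxylases (Acaca, Acacb) turn it into malonyl-CoA, and fatty acid synthase (Fasn) builds palmitate with NADPH that malic enzyme (Me1) helps to supply, after which Elovl6 lengthens the chain to stearate. Transcription of these genes is driven chiefly by SREBP-1c, a product of Srebf1 that answers to insulin and oxysterols, and by ChREBP, the product of Mlxipl, which answers to glucose metabolites.

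Promoter windows were examined because these genes are known to share SREBP, NF-Y and Sp1 sites. RefSeq windows of GRCm38.p6, from 250 bases before to 50 bases after each annotated start, were found for all 10 genes and gave 14 windows. The letters searched on both strands were TCACCC (the core of a sterol regulatory element, SRE, which SREBP binds), CACGTG (an E-box, which SREBP and several other factors bind), CCAAT (bound by NF-Y) and GGGCGG (a GC box, bound by Sp1). They were chosen with these windows in view. The SRE core stood in 1 of 3 Srebf1 windows, 1 of 2 Me1 windows and the single windows of Fasn and Pnpla3, against 16.2% of 32851 mouse promoter windows. The E-box stood in 1 of 2 Mlxipl windows, against 7.15% of all windows. The SRE core and the NF-Y letters stood together in 1 window each of Srebf1, Fasn and Pnpla3, against 5.6% of all windows. The windows of Acaca and Elovl6 held none of the 4, which says only that these letters are absent from these windows. The windows shown are those 3, the Mlxipl window with the E-box and, as a contrast, that of Elovl6. Capitals mark every match to the 4 sets of letters, and ATTGG and CCGCCC are CCAAT and GGGCGG read on the other strand.
Srebf1, chr11:60210422-60210721, minus strand: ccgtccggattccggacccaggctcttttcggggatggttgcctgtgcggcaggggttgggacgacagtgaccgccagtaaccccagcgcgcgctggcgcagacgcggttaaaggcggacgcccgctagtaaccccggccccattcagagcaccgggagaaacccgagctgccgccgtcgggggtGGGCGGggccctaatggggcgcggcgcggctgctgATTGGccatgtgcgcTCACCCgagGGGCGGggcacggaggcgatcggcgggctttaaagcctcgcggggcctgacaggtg
Fasn, chr11:120824498-120824797, minus strand: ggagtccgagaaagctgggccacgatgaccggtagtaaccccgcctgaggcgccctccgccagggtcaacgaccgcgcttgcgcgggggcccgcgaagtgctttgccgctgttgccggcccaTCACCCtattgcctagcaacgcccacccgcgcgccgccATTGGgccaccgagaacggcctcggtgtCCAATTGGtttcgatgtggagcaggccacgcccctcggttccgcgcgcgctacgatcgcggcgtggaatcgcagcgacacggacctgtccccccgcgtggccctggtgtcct
Pnpla3, chr15:84167566-84167865, plus strand: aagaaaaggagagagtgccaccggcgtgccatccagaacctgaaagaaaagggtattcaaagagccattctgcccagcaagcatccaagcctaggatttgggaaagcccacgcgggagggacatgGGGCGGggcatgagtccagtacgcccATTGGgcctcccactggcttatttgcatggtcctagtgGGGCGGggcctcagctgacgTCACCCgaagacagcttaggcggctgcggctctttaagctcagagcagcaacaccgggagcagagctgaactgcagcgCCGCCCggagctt
Mlxipl, chr5:135089640-135089939, plus strand: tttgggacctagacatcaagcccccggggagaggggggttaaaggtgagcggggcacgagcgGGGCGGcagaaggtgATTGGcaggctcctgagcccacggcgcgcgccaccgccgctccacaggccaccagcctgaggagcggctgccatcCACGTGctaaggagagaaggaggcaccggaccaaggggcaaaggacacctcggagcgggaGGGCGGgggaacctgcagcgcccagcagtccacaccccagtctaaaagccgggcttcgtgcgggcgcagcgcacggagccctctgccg
Elovl6, chr3:129532136-129532435, plus strand: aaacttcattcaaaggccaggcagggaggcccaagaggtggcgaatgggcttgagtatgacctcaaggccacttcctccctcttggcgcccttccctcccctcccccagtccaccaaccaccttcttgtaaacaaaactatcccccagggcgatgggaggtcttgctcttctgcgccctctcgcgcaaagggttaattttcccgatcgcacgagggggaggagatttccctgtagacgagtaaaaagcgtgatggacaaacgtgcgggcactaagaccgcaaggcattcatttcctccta
In the Srebf1 window the SRE core lay at bases -15 to -10 from the start, between the NF-Y letters at -30 to -26 and a GC box at -6 to -1. In the Fasn window it lay at -128 to -123, upstream of 3 matches to the NF-Y letters, of which 2 overlap in one inverted repeat. The Pnpla3 window held it at -41 to -36 between 2 GC boxes. The Mlxipl E-box lay at -98 to -93. Across GRCm38, Srebf1, Acly, Acaca and Fasn are on chromosome 11, Mlxipl and Acacb on 5, Thrsp on 7, Me1 on 9, Elovl6 on 3 and Pnpla3 on 15.

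The libraries held 43995217 to 58089531 counts, and 3 counts, taken as the lower limit of detection, correspond to 0.0398 to 0.0773 CPM. Levels are given as CPM, counts scaled to library size with TMM factors. Alb, the albumin transcript of hepatocytes, had 47582 to 80325 CPM in all 11 livers. Clec4f had 9.06, 15.2, 7.51 and 6.18 CPM in the DT livers, against 43.1 to 49.1 CPM in the saline livers and 37.1 to 50.3 CPM in the chow livers (DT against saline livers log2 FC -2.28, edgeR adjusted p = 0.00125, and -2.60 without DT liver 2). DT liver 2 stood apart from the other DT livers. On the first principal component, which held 75.9% of the variance of the 500 most variable genes, it lay at -14.2, within the saline livers (-31.0 to -10.3), whereas the other DT livers lay at 62.5 to 71.8. For that reason the values of the 10 genes in comparisons with DT livers are also given without it. The labels number the replicates of a group without stating that each is a separate animal, so p-values measure only the spread between these samples.

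Livers on western diet with alcohol held more transcript than chow livers for several of the 10 genes, and no gene of the set passed the test between DT and saline livers with TMM factors and all livers fitted. Between saline and chow livers, Srebf1, Acaca, Elovl6 and Acly rose. Between DT and chow livers the same 4 genes, Thrsp and Fasn rose, of which Fasn and Elovl6 lost the call without DT liver 2. DT and saline livers overlapped for all 10 genes, and without DT liver 2 Srebf1 fell in the other 3 DT livers (log2 FC -1.29, edgeR adjusted p = 0.00329). DT liver 2 had the highest level of all 11 livers for 7 of the 10 genes. In whole liver, fewer hepatocytes and less transcript per hepatocyte cannot be told apart.

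**Figure D1:**
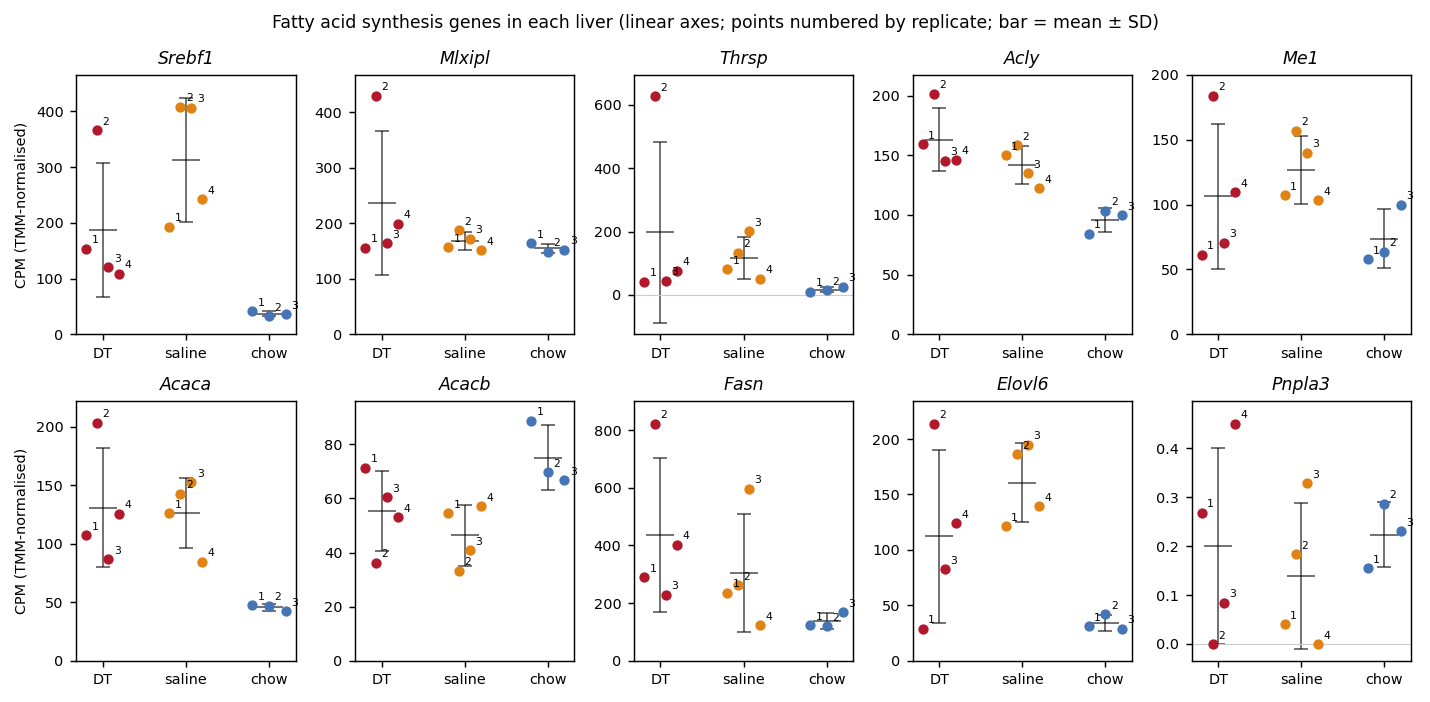
TMM-normalised CPM (linear axes) of each of the 10 genes in every liver, with DT, saline and chow livers from left to right, points numbered by replicate and bars giving mean ± SD (n = 4, 4 and 3). DT liver 2 is the highest point for Mlxipl, Thrsp, Acly, Me1, Acaca, Fasn and Elovl6, and all chow livers lie below all other livers for Srebf1, Thrsp, Acly and Acaca.

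Srebf1 encodes the SREBP-1 transcription factors that switch on lipogenic enzymes in response to insulin. It had 154, 366, 120 and 109 CPM in the DT livers, 193, 408, 406 and 243 CPM in the saline livers and 41.6, 33.0 and 35.9 CPM in the chow livers. Every liver on western diet with alcohol stood above every chow liver, and DT liver 2 fell among the saline livers while the other 3 DT livers lay below all 4 of them. By edgeR's quasi-likelihood test, whose Benjamini-Hochberg adjusted p-values are used throughout, Srebf1 rose in saline against chow livers by a log2 fold change (log2 FC) of 3.09 (SE 0.45, adjusted p = 0.00381). It rose in DT against chow livers with a log2 FC of 2.35 (SE 0.44, adjusted p = 0.00568). Both calls held with each liver left out in turn, the second at a log2 FC of 1.79 without DT liver 2. DT against saline livers gave a log2 FC of -0.74 (SE 0.37, adjusted p = 0.169), which did not pass, and leaving out DT liver 2 turned this into a fall of -1.29 (adjusted p = 0.00329).

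Mlxipl encodes ChREBP, the second main transcription factor of the pathway. Its level was 156, 430, 164 and 199 CPM in the DT livers, 157, 188, 173 and 152 CPM in the saline livers and 164, 149 and 153 CPM in the chow livers. Apart from DT liver 2, all livers lay between 149 and 199 CPM whatever the diet. None of the comparisons passed the test with TMM factors. The log2 FC was 0.50 (SE 0.28, adjusted p = 0.206) in DT against saline livers and 0.61 (SE 0.30, adjusted p = 0.161) in DT against chow livers, and without DT liver 2 these values were 0.05 and 0.16. Total count scaling called Mlxipl in both (0.77 and 1.00, adjusted p = 0.0199 and 0.00854). For saline against chow livers it was 0.11 (SE 0.30, adjusted p = 0.885). The 2 transcription factors thus had unlike ranges, Srebf1 from 33.0 to 408 CPM and Mlxipl from 149 to 430 CPM.

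Thrsp, also called Spot 14, is a small nuclear and cytosolic protein that promotes lipogenesis and follows thyroid hormone and carbohydrate feeding. It had 41.6, 627, 44.9 and 76.3 CPM in the DT livers, 80.8, 132, 201 and 50.7 CPM in the saline livers and 10.1, 14.6 and 25.8 CPM in the chow livers. The level in DT liver 2 was 11.5 times the mean of the other 3 DT livers, and every liver on western diet with alcohol was above every chow liver. Thrsp rose in DT against chow livers (log2 FC 3.55, SE 1.02, adjusted p = 0.0293). That call held without DT liver 2 at a smaller log2 FC of 1.69 (adjusted p = 0.0312) but not without chow liver 1, 2 or 3, where the adjusted p was 0.101, 0.0953 and 0.0671. It was also lost with limma-voom (0.0604), with no filter (0.101) and when only DT and chow livers were fitted (0.0691). For saline against chow livers the log2 FC was 2.78 (SE 0.98, adjusted p = 0.13), and this passed in the refit without DT liver 2 (adjusted p = 0.0121), with DESeq2 (0.036) and when only saline and chow livers were fitted (0.0335). DT against saline livers gave 0.76 (SE 0.82, adjusted p = 0.52), and without DT liver 2 the sign turned to -1.10 (adjusted p = 0.106).

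Acly supplies the acetyl-CoA from which fatty acids are built. Its levels were 159, 201, 145 and 146 CPM in the DT livers, 150.0, 158, 135 and 123 CPM in the saline livers and 84.2, 103.5 and 99.7 CPM in the chow livers. The change was modest but tight, with all 8 livers on western diet with alcohol above all 3 chow livers. Acly rose in DT against chow livers (log2 FC 0.77, SE 0.15, adjusted p = 0.0068), also with each liver left out (0.65 without DT liver 2). It also rose in saline against chow livers (log2 FC 0.56, SE 0.15, adjusted p = 0.0496). This second call lay at the threshold: it was lost on leaving out any one saline liver (adjusted p = 0.0569 to 0.135) or any one chow liver (0.115 to 0.217), and with no filter (0.0518). DT and saline livers differed by a log2 FC of 0.20 (SE 0.14, adjusted p = 0.296), and by 0.09 without DT liver 2.

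Me1 makes NADPH while turning malate into pyruvate. It had 61.3, 184, 70.5 and 109 CPM in the DT livers, 107, 157, 140 and 103 CPM in the saline livers and 58.1, 63.6 and 99.8 CPM in the chow livers. All saline livers were above all chow livers, by a small margin, and the DT livers reached both above the saline range and into the chow range. No comparison passed the test with TMM factors: the log2 FC was -0.25 (SE 0.32, adjusted p = 0.586) in DT against saline livers, 0.52 (SE 0.35, adjusted p = 0.292) in DT against chow livers and 0.78 (SE 0.35, adjusted p = 0.23) in saline against chow livers. Without DT liver 2 the value for DT against saline livers was -0.66 (adjusted p = 0.0628) and that for DT against chow livers 0.12. Total count scaling called Me1 higher in DT than in chow livers (0.93, adjusted p = 0.0327).

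The 2 acetyl-CoA carboxylases differed in where they stood relative to chow livers. Acaca, the cytosolic form that feeds malonyl-CoA to fatty acid synthase, had 107, 203, 87.0 and 126 CPM in the DT livers, 126, 143, 152 and 84.7 CPM in the saline livers and 47.4, 47.0 and 42.2 CPM in the chow livers. All 8 livers on western diet with alcohol were above the 3 chow livers, which differed little among themselves. Acaca rose in DT against chow livers (log2 FC 1.52, SE 0.28, adjusted p = 0.00547; 1.23 and 0.000737 without DT liver 2) and in saline against chow livers (log2 FC 1.47, SE 0.28, adjusted p = 0.0119). Leaving out chow liver 1, 2 or 3 moved the second of these just past the threshold, to adjusted p = 0.058, 0.0572 and 0.0537. DT and saline livers had nearly equal means, 131 ± 50.9 and 127 ± 30.0 CPM (SD, n = 4 each; log2 FC 0.05, SE 0.25, adjusted p = 0.907). Without DT liver 2 that log2 FC was -0.25 (adjusted p = 0.316).

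Acacb, the form at the outer mitochondrial membrane whose malonyl-CoA restrains fatty acid import for oxidation, had 71.3, 36.3, 60.5 and 53.0 CPM in the DT livers, 54.5, 33.3, 40.8 and 57.1 CPM in the saline livers and 88.7, 69.8 and 66.7 CPM in the chow livers. All saline livers lay below all chow livers, and DT liver 1 reached into the chow range. DT liver 2, the highest liver for 7 other genes of the set, was the lowest DT liver for Acacb. The log2 FC was -0.69 (SE 0.23, adjusted p = 0.112) in saline against chow livers, -0.44 (SE 0.23, adjusted p = 0.189) in DT against chow livers and 0.25 (SE 0.22, adjusted p = 0.421) in DT against saline livers, so none passed. In the refit without DT liver 2 the saline against chow value passed (adjusted p = 0.0379), and the values for DT against chow and DT against saline livers were -0.28 and 0.41. Of the 11 refits that left out 1 liver, only that refit called Acacb in saline against chow livers. Of 10 other settings 2 called it, namely only the compared groups and the replicate number as a block.

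Fasn, the synthase itself, had 290.0, 823, 229 and 403 CPM in the DT livers, 235, 261, 597 and 124 CPM in the saline livers and 124, 120 and 169 CPM in the chow livers. The 4 DT livers were above all chow livers, while saline liver 4 lay within the chow range and saline liver 3 stood above the rest of its group. Fasn rose in DT against chow livers (log2 FC 1.67, SE 0.53, adjusted p = 0.0421). This call did not outlast the loss of DT liver 2 (log2 FC 1.16, adjusted p = 0.0899), DT liver 1 or 4 (0.0506 and 0.0797), saline liver 1 or 2 (0.056 and 0.0577), or chow liver 1, 2 or 3 (0.127, 0.129 and 0.0876), and it was lost with limma-voom (0.0525) and with no filter (0.126). The log2 FC was 1.15 (SE 0.52, adjusted p = 0.233) in saline against chow livers and 0.52 (SE 0.47, adjusted p = 0.442) in DT against saline livers, the second of which was 0.01 without DT liver 2.

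Elovl6, which lengthens palmitate to stearate, had 29.1, 214, 82.6 and 124 CPM in the DT livers, 121, 186, 195 and 139 CPM in the saline livers and 31.2, 42.0 and 29.0 CPM in the chow livers. The saline livers were all above the chow livers. DT liver 1 stood at the chow level and DT liver 2 above every saline liver, which gave Elovl6 a wide spread within the DT group (112 ± 78.0 CPM, SD, n = 4). Elovl6 rose in saline against chow livers (log2 FC 2.24, SE 0.51, adjusted p = 0.0265), but not once saline liver 2 or 3 (adjusted p = 0.0691 and 0.0609) or chow liver 1, 2 or 3 (0.123, 0.0852 and 0.103) was left out, nor with no filter (0.11). It rose in DT against chow livers (log2 FC 1.72, SE 0.50, adjusted p = 0.0295), with groups that overlapped, and the call was lost without DT liver 2 (log2 FC 1.21, adjusted p = 0.0558), DT liver 4 (0.0687) or chow liver 1, 2 or 3 (0.1, 0.0668 and 0.103), as well as with limma-voom (0.0719), no filter (0.0989) and only DT and chow livers fitted (0.0803). In DT against saline livers the log2 FC was -0.51 (SE 0.44, adjusted p = 0.414), and -1.03 without DT liver 2 (adjusted p = 0.0773).

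Pnpla3 encodes a lipid droplet protein whose transcript is induced by SREBP-1c and ChREBP on carbohydrate feeding. Here it was close to the detection limit in all groups, with 18, 0, 6 and 34 counts in the DT livers, 2, 9, 18 and 0 counts in the saline livers and 6, 14 and 10 counts in the chow livers. In DT liver 2, the liver with the highest Fasn and Thrsp, it had 0 counts, which allows a level of up to 0.0624 CPM. No comparison passed the test, and at this depth a difference was not detectable: the log2 FC was 0.54 (SE 1.01, adjusted p = 0.722) in DT against saline livers, -0.13 (SE 1.07, adjusted p = 0.942) in DT against chow livers and -0.67 (SE 1.10, adjusted p = 0.786) in saline against chow livers. Without DT liver 2 the values for DT against saline and DT against chow livers were 0.92 and 0.25.

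**Figure D2:**
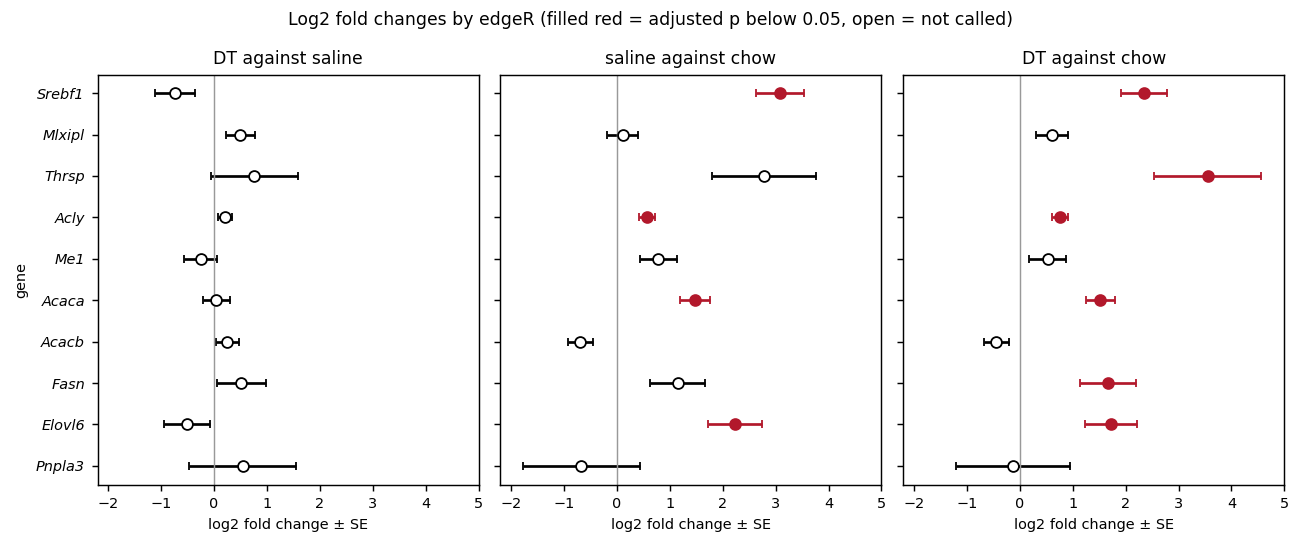
Log2 fold change ± SE by edgeR for each gene in DT against saline, saline against chow and DT against chow livers, with filled red points where the adjusted p was below 0.05 and open points otherwise. No point is filled in DT against saline, 4 are filled in saline against chow (Srebf1, Acly, Acaca, Elovl6) and 6 in DT against chow (those 4, Thrsp and Fasn), all to the right of 0.

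Counted over the set, 0 of 10 genes were called in DT against saline livers, where 21.9% of all tested genes were called. None of the 10 had an unadjusted p below 0.05 there, and DESeq2 and limma-voom also called 0. The median log2 FC of the set was 0.23, against 0.02 for all tested genes, and the 2 groups overlapped for all 10 genes while they did not for 19.3% of all genes. In saline against chow livers, 4 of 10 rose and 0 fell, where 5.58% of all genes were called, 2.45% higher and 3.13% lower. The set's median log2 FC was 0.96, against 0.00 over all genes, and the groups did not overlap for 7 of 10 genes, against 30.4% of all genes. In DT against chow livers, 6 of 10 rose and 0 fell, where 23% of all genes were called, 14.8% higher and 8.16% lower, with a set median of 1.14 against -0.02 and 5 of 10 genes without overlap against 29.2%. The last 2 comparisons share the chow livers, so their calls are not separate evidence. Scaling by total count in place of TMM moved the median of all genes by 0.34 in DT against saline livers, 0.13 in saline against chow livers and 0.46 in DT against chow livers. Under it, Mlxipl (log2 FC 0.77, adjusted p = 0.0199) and Acly (0.52, adjusted p = 0.00637) were called higher in DT than in saline livers, of which 0.43 and 0.19 lay above that shift, while 33% of all genes were called. It also added Mlxipl and Me1 in DT against chow livers, where 38.4% of all genes were called.

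The set took 0.131%, 0.300%, 0.128% and 0.175% of all counts in the DT livers, 0.116%, 0.156%, 0.198% and 0.0989% in the saline livers and 0.0573%, 0.0548% and 0.0617% in the chow livers. Every liver on western diet with alcohol thus gave a larger share to these genes than any chow liver, and DT liver 2 gave the largest. Relative to the chow mean, the average of the 10 log2 differences was 0.63, 1.62, 0.55 and 1.08 in the DT livers and 0.80, 1.24, 1.48 and 0.49 in the saline livers. Pnpla3, close to the detection limit, lowered some of these averages. It entered at -2.78 in DT liver 2 and saline liver 4, with 0 counts each, and at -1.71 in saline liver 1, with 2 counts. The medians of the 10 differences were 0.50, 1.82, 0.68 and 1.20 in the DT livers and 0.72, 1.04, 1.35 and 0.44 in the saline livers. Saline livers 2 and 3 were the higher pair of their group for Srebf1, Mlxipl, Thrsp, Me1, Acaca, Fasn and Elovl6, and the lower pair for Acacb. DT liver 2 had 2.87 times the mean of the other 3 DT livers for Srebf1, 2.48 times for Mlxipl, 1.34 times for Acly, 2.29 times for Me1, 1.91 times for Acaca, 2.68 times for Fasn and 2.72 times for Elovl6, but 0.590 times for Acacb. The refit without it called 1 gene in DT against saline livers (Srebf1, lower), 6 in saline against chow livers (Thrsp and Acacb added) and 4 in DT against chow livers (Srebf1, Thrsp, Acly, Acaca). In that refit 40.3%, 11.4% and 40.3% of all genes were called in these comparisons.

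**Figure D3:**
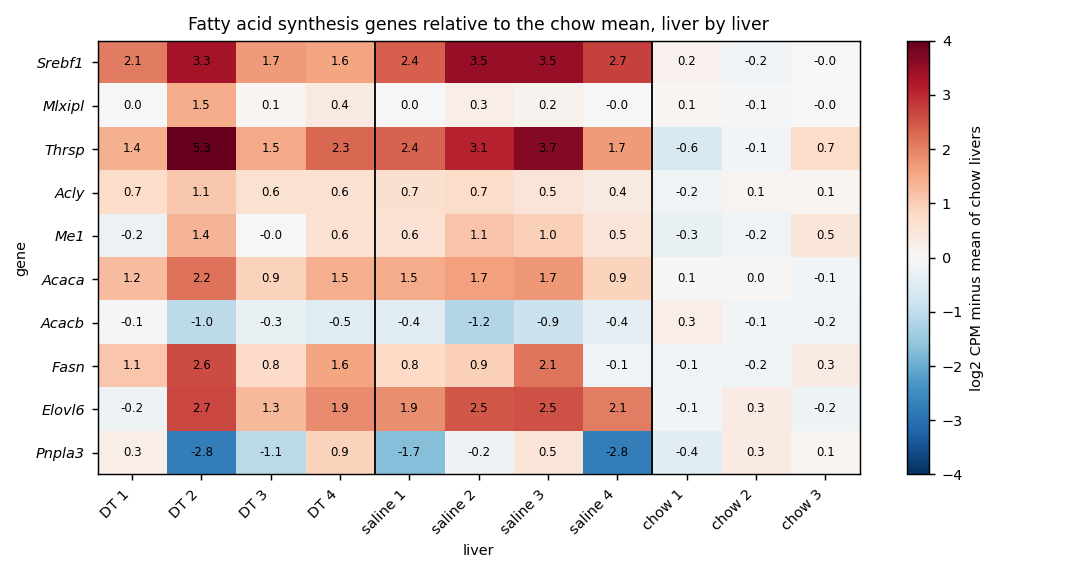
Log2 CPM (prior count of 2) of each gene minus the mean of the chow livers, one column per liver with DT livers at the left, saline livers in the middle and chow livers at the right; the colour scale runs from -4 to 4 and the printed numbers give the values. DT liver 2 and saline livers 2 and 3 are the darkest red columns, the Acacb row is blue on western diet with alcohol, and the deep blue Pnpla3 cells are livers with 0 counts.

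Set per kilobase of annotated exon, which allows genes to be compared, Srebf1 ranked 4 of 10 in the DT livers, 1 of 10 in the saline livers and 7 of 10 in the chow livers. Its level per kilobase was 33.2 ± 21.4 CPM in the DT livers, 55.5 ± 19.8 CPM in the saline livers and 6.54 ± 0.774 CPM in the chow livers (SD, n = 4, 4 and 3). Mlxipl was the highest of the 10 in the chow livers, with 42.9 ± 23.4 CPM per kilobase in the DT livers, 30.3 ± 2.94 in the saline livers and 28.05 ± 1.41 in the chow livers. Its neighbours in the chow order, Me1 (19.2 ± 5.89) and Acly (18.1 ± 1.94 CPM per kilobase), did not differ from each other beyond their spread, nor did Srebf1 from Thrsp (53.1 ± 30.0 CPM per kilobase) at the top of the saline order. Acaca stood at 7.66 ± 2.98 CPM per kilobase in the DT livers, 7.41 ± 1.75 in the saline livers and 2.67 ± 0.169 in the chow livers, and Acacb at 5.74 ± 1.53, 4.82 ± 1.17 and 7.79 ± 1.24. The carboxylase with the higher level per kilobase was thus Acaca in the means of the DT and saline livers and Acacb in the chow livers. In the DT and saline livers the ranges given by these SDs overlap.

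Profiles over the 11 livers were set beside each other by the root mean square difference of centred log2 CPM, as a description with no test. The value is small for any 2 genes that vary little, and the SD of log2 CPM over the livers was 0.34 for Acly, 0.42 for Mlxipl, 0.54 for Me1, 0.73 for Acaca, 0.88 for Fasn and 1.31 for Srebf1. The smallest values were those of Mlxipl with Acly (0.33), Mlxipl with Me1 (0.42) and Acly with Me1 (0.43), about as large as the SDs of these genes, whereas Acaca with Fasn (0.47) lay below both of their SDs. For Srebf1 the nearest of the set was Elovl6 (0.70). Among the 9764 genes that averaged a log2 CPM of 2 or more, the nearest to Srebf1 were Angptl8 (0.45), Tceal8 (0.50) and Tnfrsf19 (0.53), to Mlxipl Sh3pxd2a (0.15), Pdhb (0.18) and Frmd8 (0.21), and to Fasn Acaca (0.47), Bcl3 (0.52) and Pgd (0.53). For Thrsp the nearest was Pklr (0.68), with 126, 549, 117 and 181 CPM in the DT livers, 178, 401, 353 and 154 CPM in the saline livers and 61.8, 64.1 and 84.1 CPM in the chow livers. DT liver 2 was highest there too, but Pklr was picked for its likeness to Thrsp over these same livers. Slc17a4 (0.22) was nearest to Acaca, and Pglyrp2 (0.18) and Pnpla2 (0.19) to Acacb.

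Beyond the 10 genes, 72 others of the pathway were counted in 8 lists, all of which were tested. In DT against saline livers, 3 of the 72 rose and 17 fell, with a median log2 FC of -0.17, against 14.3% and 7.62% of all genes and a median of 0.02. The sign of this median and the balance of calls hang on the scaling. Under total count scaling 19 rose and 6 fell, against 30.4% and 2.62% of all genes. The median was then 0.14, against 0.36 for all genes, so under both scalings it lay below that of all genes. Without DT liver 2 the counts were 9 and 31, against 22.6% and 17.7% of all genes. Elongation and desaturation had the most calls, 2 higher and 5 lower of 13. Scd1, the desaturase that makes oleate, had 13848 ± 3952 CPM in the DT livers, 30434 ± 5028 CPM in the saline livers and 1944 ± 453 CPM in the chow livers (SD, n = 4, 4 and 3). It fell in DT against saline livers (log2 FC -1.14, SE 0.26, adjusted p = 0.0126), with each liver left out and under total count scaling as well. Elovl2, an elongase of long polyunsaturated chains, fell likewise (log2 FC -0.88, SE 0.16, adjusted p = 0.00678), as did the desaturase Fads2 (-0.82, SE 0.20, adjusted p = 0.0157), the last of these not under total count scaling (adjusted p = 0.0964).

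The remaining 7 lists gave 13 calls in DT against saline livers. With TMM factors and all livers fitted, edgeR called 0 of 7 genes of SREBP processing and 0 of 10 ChREBP partner and target genes. In each list 2 genes had an unadjusted p below 0.05. Without DT liver 2 edgeR called Scap (log2 FC -0.54, adjusted p = 0.0033), Srebf2 (0.38, 0.00829), Txnip (1.15, 0.000667) and Slc2a2 (-0.95, 0.000527), where 40.3% of all genes were called. Under total count scaling 2 and 5 genes of these lists were called, all higher, where 30.4% of all genes rose. DESeq2 called Scap of the first list and Txnip and Slc2a2 of the second, and limma-voom called none of either. Of fatty acid activation and glyceride synthesis, 0 of 11 rose and 2 fell, Acsl1 (log2 FC -1.30, adjusted p = 0.015), which activates fatty acids, and Gpam (-0.69, adjusted p = 0.0136), which starts glycerolipid synthesis. Both held with each liver left out and under total count scaling. Of carbon and NADPH supply, 0 of 8 rose and Acss2 (-0.57, adjusted p = 0.0153) and Idh1 (-0.57, adjusted p = 0.0282) fell, but neither under total count scaling (0.0873 and 0.118). Acss2 was lost without DT liver 3 (0.0536), and Idh1 without DT liver 3 or 4 or saline liver 2 or 3 (adjusted p up to 0.0878). AMPK and malonyl-CoA control had 1 higher, the kinase subunit Prkab2 (log2 FC 1.47, adjusted p = 0.0171), and 3 lower of 8, among them the malonyl-CoA decarboxylase Mlycd (-0.61, adjusted p = 0.0163) and the carnitine transferase Cpt1a (-0.71, adjusted p = 0.0403), the last not under total count scaling (0.259). Leaving out 1 liver ended the call of Prkab2 (DT liver 4, saline liver 2 or 4, up to 0.0548), Mlycd (DT liver 3, saline liver 4, up to 0.0534) and Cpt1a (DT liver 4, saline liver 1, 2 or 4, chow liver 1 or 2, up to 0.118). Of the LXR and insulin inputs 0 of 10 rose and 3 fell, Insr (-0.47), Rxra (-0.58) and Akt2 (-0.38), and of mitochondrial fatty acid synthesis 0 of 5 rose and Oxsm (-0.52) and Cbr4 (-0.51) fell. None of these 5 was called under total count scaling. Insr and Oxsm held with each liver left out, Rxra was lost without DT liver 4 or saline liver 4 (up to 0.0667), and Akt2 and Cbr4 without DT liver 1, 3 or 4 or saline liver 1, 2 or 4 (up to 0.0737 and 0.0968).

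In saline against chow livers, 3 of the 72 rose and 4 fell, with a median of -0.02, against 2.45% and 3.13% of all genes. Without DT liver 2 the counts were 10 and 7 (5.71% and 5.64% of all genes), and under total count scaling the balance turned to 7 and 3 (3.48% and 1.71% of all genes). Scd1 had the largest log2 FC of these 7 genes (3.97, SE 0.32, adjusted p = 0.000137), and Mogat1, a monoacylglycerol acyltransferase, rose too (log2 FC 3.71, SE 0.51, adjusted p = 0.00291), at 2.21 ± 1.28 CPM in the DT livers, 3.69 ± 0.561 CPM in the saline livers and 0.282 ± 0.148 CPM in the chow livers. Srebf2, the sister gene of Srebf1 that drives cholesterol synthesis, fell to 0.500 times the chow mean (SE of the log2 FC 0.13, adjusted p = 0.00171), with 35.7 ± 5.15 CPM in the DT livers, 29.5 ± 2.62 CPM in the saline livers and 59.0 ± 3.57 CPM in the chow livers. G6pc, the glucose-6-phosphatase gene that ChREBP induces, fell as well (log2 FC -1.67, SE 0.26, adjusted p = 0.00487). These 4 calls held with each liver left out. The other calls were Scd2 (2.07, adjusted p = 0.0277), Insig2 (-0.92, adjusted p = 0.0329) and Txnip (-1.37, adjusted p = 0.0387), which were lost in at least one such refit (adjusted p up to 0.114, 0.133 and 0.165).

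In DT against chow livers, 10 of the 72 rose and 17 fell, where 14.8% and 8.16% of all genes did. Without DT liver 2 the counts were 9 and 27 (22% and 18.3% of all genes), and under total count scaling 25 and 5 (36.4% and 1.99% of all genes). SREBP processing had 0 of 7 higher and 4 lower. They were Scap (log2 FC -0.84, adjusted p = 0.00532), which escorts SREBP out of the endoplasmic reticulum, the retention proteins Insig1 (-0.85, adjusted p = 0.039) and Insig2 (-0.73, adjusted p = 0.0346), and Srebf2 (-0.72, adjusted p = 0.00491). Of these only Scap was still called under total count scaling (adjusted p = 0.0143). Scap and Srebf2 held with each liver left out, while Insig1 (not without any one DT or chow liver, up to 0.123) and Insig2 (up to 0.115, without chow liver 2) did not. Of carbon and NADPH supply, 2 rose and 2 fell. The pentose phosphate enzymes Pgd (log2 FC 1.09, adjusted p = 0.00568) and G6pdx (1.14, adjusted p = 0.00823), which also supply NADPH, rose under both scalings. Acss2 (-0.74, adjusted p = 0.007) and Idh1 (-0.65, adjusted p = 0.0218) fell with TMM factors, whereas 0 genes of this list fell under total count scaling. Scd1 (2.83, adjusted p = 0.000903), Scd2 (3.13, adjusted p = 0.00363) and Mogat1 (2.96, adjusted p = 0.00422) rose, and Acsl1 fell (-1.93, adjusted p = 0.00443), under both scalings too. With TMM factors Elovl2 fell as well (-1.11, adjusted p = 0.00336).

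**Figure D4:**
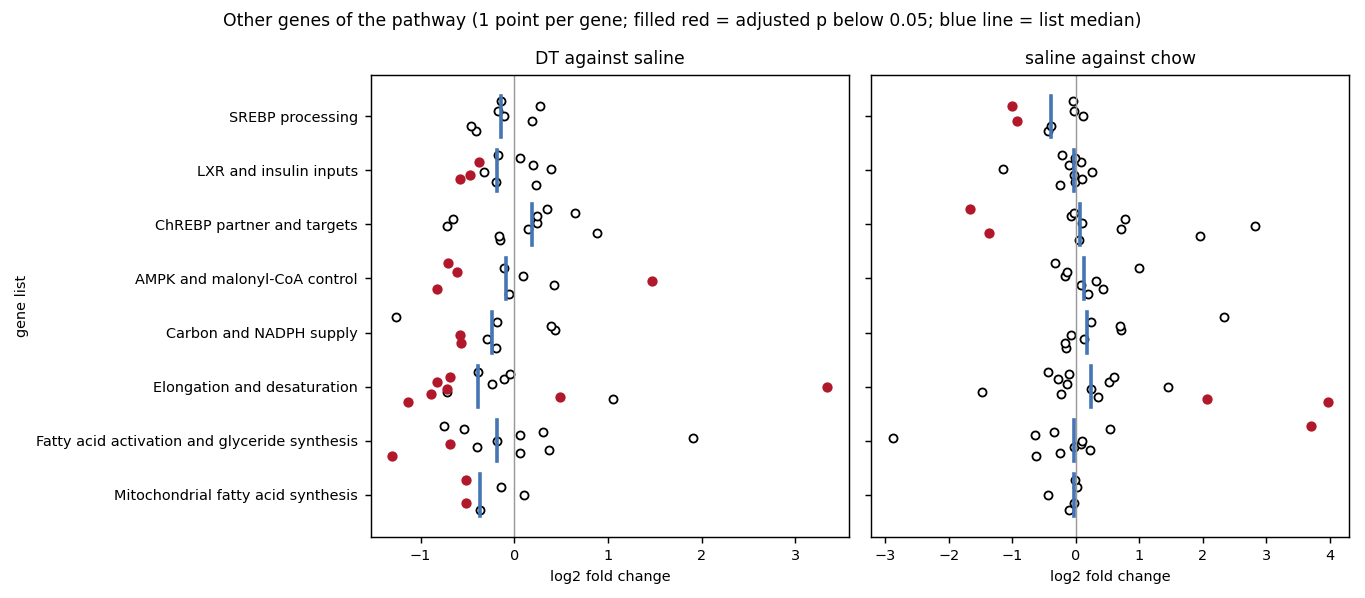
Log2 fold change by edgeR of the 72 other pathway genes in 8 lists, one point per gene, for DT against saline livers (left) and saline against chow livers (right); filled red points had an adjusted p below 0.05 and blue lines are list medians. On the left 17 filled points lie below 0 and 3 above, and on the right 4 lie below and 3 above.

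Markers of other cells moved with the groups, and their part in the results was not tested. The summed level of 5 hepatocyte markers was 59675 to 80061 CPM in the DT livers, 74197 to 88708 CPM in the saline livers and 86698 to 107141 CPM in the chow livers, and 2 of the 5 (Apoa1, Hnf4a) fell in DT against chow livers. The 5 Kupffer cell markers summed to 155, 183, 131 and 111 CPM in the DT livers, 246 to 359 CPM in the saline livers and 197 to 293 CPM in the chow livers, and all 5 fell in DT against saline livers. Most of the sum in the DT livers was Cd5l, with 128, 144, 107 and 93.9 CPM. Cd5l was not called in DT against chow livers (log2 FC -0.13, edgeR adjusted p = 0.656), where the other 4 markers fell. DT liver 2 was the highest DT liver for this sum and for each of the 5 markers. The 4 cholangiocyte markers summed to 71.4, 8.05, 47.2 and 82.5 CPM in the DT livers, 3.49 to 6.66 CPM in the saline livers and 9.13 to 17.7 CPM in the chow livers, and all 4 rose in DT against saline livers. The 5 markers of stellate cells and fibroblasts summed to 341, 193, 400 and 444 CPM in the DT livers, 116 to 212 CPM in the saline livers and 92.5 to 120.0 CPM in the chow livers, and 4 of the 5 rose in DT against saline livers. DT liver 2, highest for 7 lipogenic genes, was thus the lowest DT liver in the cholangiocyte sum and in the stellate cell and fibroblast sum. Among the markers of the second sum, DT liver 2 was the lowest DT liver for Col1a1, Des and Dcn only. Its Acta2, at 9.905 CPM, lay above DT livers 3 and 4 (5.34 and 2.31 CPM). Its Lrat, at 14.1 CPM, lay above DT livers 1 and 3 (13.4 and 12.8 CPM). The 3 endothelial markers summed to 142 to 167 CPM in the DT livers, 192 to 209 CPM in the saline livers and 177 to 221 CPM in the chow livers, and 2 of them (Stab2, Kdr) fell in DT against saline livers. The 3 general macrophage markers summed to 87.2 to 152 CPM in the DT livers, 123 to 157 CPM in the saline livers and 101 to 156 CPM in the chow livers, with Cd68 higher and Adgre1 lower in DT against saline livers. The proliferation markers Mki67 and Top2a summed to 5.08 to 18.3 CPM in the DT livers, 3.34 to 7.43 CPM in the saline livers and 1.66 to 3.43 CPM in the chow livers, and both rose in DT against chow livers. The T and B cell markers, Cd3e and Cd79a, summed to 1.24 to 3.61 CPM over all livers, with no call under TMM factors. Fat tissue also makes lipogenic transcripts. Of the 5 adipocyte markers, Lep was at 0 and Adipoq, Plin1 and Retn at no more than 0.138 CPM in any liver. The fifth, Cfd, had 0.0597, 12.9, 0.678 and 1.59 CPM in the DT livers, 9.03 to 61.3 CPM in the saline livers and 0 to 0.369 CPM in the chow livers. Cfd was called higher in saline against chow livers (log2 FC 7.88, edgeR adjusted p = 0.0364) and was not called in the other comparisons. Lep, Adipoq, Plin1 and Retn did not pass the filter on low counts. DT liver 2 was the highest DT liver for Cfd as well. Saline livers 1 and 4, the highest for Cfd, were the lowest of their group for Thrsp and Fasn. Whether attached fat added to these levels was not tested.

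Exons of 5 of the 10 genes share bases with another annotated gene. The shared part is 1.93% of the Srebf1 exon bases with Rai1 on the other strand and 1.17% with a microRNA gene, 4.24% of Mlxipl with an antisense gene, 0.780% of Me1 and 0.529% of Elovl6 with antisense genes, and 6.78% of Pnpla3 with a transcript on the same strand. The microRNA gene and the transcript that overlaps Pnpla3 lie on the same strand as the gene they overlap, so no strand setting could separate those reads. For the other stretches no strand setting is stated, so their reads cannot be told apart here.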

How the data were processed

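Poly(A) RNA of 11 whole livers was sequenced. The authors deposited raw counts for 55414 Ensembl genes. The submitters' processing notes name FastQC, STAR, featureCounts and the GRCm39 build; versions, the annotation, the strand option and how mates were counted are not given in the sources used here. The labels' extraction text describes sorted CD45-positive cells, which was read as another experiment because the tissue label and Alb name whole liver. Between 76.4% and 80.7% of counts from 1 to 9 were even, so both mates may have been counted, and halved counts were tried. Of the rows, 1416 carry no gene name.

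From these counts, genes were kept with filterByExpr, factors were TMM, and edgeR 4.0.16 (R 4.3.3) fitted 1 mean per group over all 11 livers, with robust quasi-likelihood estimates and 8 residual degrees of freedom (common BCV 30.1%). Two-sided tests were used, with Benjamini-Hochberg adjustment over all 17038 tested genes within a comparison and a threshold of 0.05. The SE is the log2 fold change divided by the root of F. Log2 CPM used a prior count of 2. Limits from 3 counts cover counting error only. Alternatives were other scalings and filters, DESeq2 1.42.0, limma-voom (limma 3.58.1), only the compared groups, the replicate number as a block, halved counts and each liver left out. Refits of the pathway lists and the motif search were added after the data were seen. The script was tested on simulated data. Of 2-fold changes it recovered 47.9% in DT against saline, 38.7% in saline against chow and 36.1% in DT against chow livers. For 4-fold changes these values were 72.9%, 80.2% and 76.3%. Few genes were changed in the simulation: for DT against saline livers 94 by 2-fold and 96 by 4-fold of 16432, whereas 3734 were called in the data. The recovered shares therefore need not hold for the data, and a gene that was not called is not shown to be unchanged. Exon lengths for levels per kilobase came from an annotation of GRCm38, as did the promoters, an earlier build than the alignment, matched by gene identifier or symbol. The 10 genes, the 8 pathway lists and the marker lists were chosen with earlier results of these data known. All 10 genes are named in each comparison, and by name up to 3 genes per list with the smallest p among those called; genes named beyond these because 5 or fewer went one way were chosen after their values were seen. Of the 118 listed genes 116 were found. Same-numbered samples of different groups did not deviate together (correlations -0.164 to 0.182), so the numbers were not taken as pairs. No 2 livers of a group agreed within sampling noise. Western diet without alcohol, named in the treatment text, was not analysed here.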

Additional observations from a re-analysis of the deposited data

Results flagged for a closer look

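Over the 10 genes, the DT and saline livers gave 20 groups of 4 that were tested for a sample far from the others, and chance alone would flag about 1 in 20. The gap of DT liver 2 to its nearest neighbour, divided by the range of the DT group, was above Dixon's critical value for groups of 4 in 2 genes. Mlxipl had 429.9 CPM in DT liver 2, a gap of 0.842 of the range, where the other DT livers had 156 to 199 CPM. Thrsp had 626.6 CPM there, a gap of 0.941 of the range, where the other DT livers had 41.6 to 76.3 CPM. The cause was not tested.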

How the results depend on the processing

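Over the fold changes of the 10 genes and all alternatives run, 558 values kept their direction and their side of the threshold, 43 lost the call, 11 gained it and 11 changed sign. Under total count scaling, 2 of the 10 genes were called in DT against saline livers, and Me1 there (0.0227), Acacb in DT against chow livers (0.0474) and Pnpla3 in DT against chow livers (0.41) changed sign. Limma-voom turned Thrsp in DT against saline livers to -0.0188 and called 3 genes of the set in DT against chow livers. With no filter, 2 were called in saline against chow livers and 3 in DT against chow livers. With each liver left out the set's calls ranged from 0 to 1, 1 to 6 and 3 to 6 in DT against saline, saline against chow and DT against chow livers, and signs changed in DT against saline livers for Thrsp (-1.10 to 1.15, negative without DT liver 2), Acaca (-0.25 to 0.21, negative without DT liver 2 or saline liver 4) and Pnpla3 (-0.17 to 1.41, negative without DT liver 4), and in DT against chow livers for Pnpla3 (-0.83 to 0.25, positive without DT liver 2, DT liver 3 or chow liver 2). The cause was not tested.

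Over all genes, 3734, 950 and 3919 were called in these 3 comparisons. Total count scaling gave 5629 (5183 higher, 446 lower, against 2436 and 1298 with TMM) and 6536 (6197 higher, 339 lower, against 2528 and 1391) in DT against saline and DT against chow livers, and 593 higher with 292 lower, against 417 and 533, in saline against chow livers. Upper quartile factors gave 2892 higher with 928 lower, and 2881 with 834, in DT against saline and DT against chow livers. Only the compared groups gave 2303, 3105 and 2089, and DESeq2 gave 1831 in saline against chow livers. Leaving out each liver gave 1786 to 6824, 287 to 1924 and 1786 to 6834. The highest values came without DT liver 2. Pathway genes called ranged from 10 to 40 in DT against saline livers.

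With the replicate number as a block, 0, 5 and 4 of the 10 genes were called, Acacb being added in saline against chow livers and Fasn and Elovl6 lost in DT against chow livers, and 559 and 2210 genes in saline against chow and DT against chow livers; 5 of the 11 livers correlated best with their own number. Pnpla3 had no value with a filter of 1 CPM in 3 libraries or with halved counts, nor in DT against saline livers with only the compared groups. Counts were few for Pnpla3 (0 to 34 per liver), while the other 9 genes had at least 394 counts in every liver.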
